A study of Mus musculus with 12 samples.

Results

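The microRNAs (miRNAs) of the mouse hippocampus were compared between 24 h after electroconvulsive shock (ECS) and the untreated state. The comparison rests on 4 of the 12 small RNA libraries of the study, 2 from untreated mice (NT-1 and NT-2) and 2 from mice taken 24 h after ECS (24h-1 and 24h-2). The mice were males of the strain C57BL/6NCrl, 6 to 8 weeks old, each library came from 1 animal, and no transgene or drug is stated for either group. Untreated mice stayed in their home cage, and whether they were handled like the shocked mice is not stated in the sources used here. The libraries were paired by replicate number, which stands for the time course, so pair 1 is 24h-1 against NT-1 and pair 2 is 24h-2 against NT-2. Each miRNA hairpin was read as a 5′ and a 3′ arm, and 470 arms with 10 or more counts in at least 2 of the 12 libraries were kept. Of these, 227 arms moved the same way in both pairs, and they are the members described here. The whole hippocampus was used, so fewer cells of a type and less miRNA per cell cannot be told apart.

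A miRNA is cut from a hairpin precursor by Drosha and Dicer, and 1 strand is loaded into an Argonaute protein, where its seed (bases 2 to 8) pairs with target mRNAs and represses them. ECS passes a current through the brain and evokes a generalized seizure, which fires hippocampal neurons together and switches on immediate early genes within minutes. Several neuronal miRNAs, such as miR-132, miR-134 and miR-138, are known for their roles at dendrites and synapses, and mature miRNAs are often long-lived.

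The mature sequences of miRNAs on which the results turn follow from 5′ to 3′, from RefSeq (GRCm38.p6), with the seed in capitals. The first 5 are let-7 family members that share 1 seed and were higher in both pairs, then come miR-29a and miR-29c, which share another.

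let-7a-5p: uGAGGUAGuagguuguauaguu
let-7b-5p: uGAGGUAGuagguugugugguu
let-7c-5p: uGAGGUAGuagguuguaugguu
let-7f-5p: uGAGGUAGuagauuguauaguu
let-7g-5p: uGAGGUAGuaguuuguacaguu
miR-29a-3p: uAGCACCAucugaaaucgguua
miR-29c-3p: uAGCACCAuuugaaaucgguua

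The next sequences belong to arms outside those families. miR-34b-5p was higher in both pairs, like its cluster mate miR-34c-5p. The 3′ arms of miR-30a and miR-30e share a seed, and both were lower in both pairs. miR-879-5p and miR-411-5p were lower too. miR-181b-5p and miR-181a-5p share a seed, yet they differed in direction in pair 2.

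miR-34b-5p: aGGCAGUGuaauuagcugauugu
miR-30a-3p: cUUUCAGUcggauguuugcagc
miR-30e-3p: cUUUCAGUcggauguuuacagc
miR-879-5p: aGAGGCUUauagcucuaagcc
miR-411-5p: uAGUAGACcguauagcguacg
miR-181a-5p: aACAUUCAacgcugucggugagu
miR-181b-5p: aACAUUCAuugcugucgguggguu

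The libraries differed in ways that bear on every value below. Accepted reads numbered 3674297 in NT-1, 6792932 in 24h-1, 7574743 in NT-2 and 7285603 in 24h-2, of which 1067773, 2219800, 4282033 and 4108371 matched miRNA hairpins. NT-1 stood apart from the others, since 51.4% of its miRNA reads were only 18 or 19 nt long, against 4.54% in 24h-1, 1.69% in NT-2 and 1.15% in 24h-2. In the other 8 libraries this share lay between 0.911% and 16.9%. NT-1 is the reference of pair 1, so pair 2, which does not use it, is given beside pair 1 throughout. The part of short reads in the results of pair 1 was tested only by counting tags of 20 to 24 nt alone. Levels are given in CPM, the count of an arm relative to the miRNA total of its library after scaling with edgeR's TMM method, and changes are log2 differences with a prior count of 2, on which scale 1 is a 2-fold change.

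Over all 470 arms, no arm passed edgeR's quasi-likelihood test with the time course as a block (0 of 470, or 0%, at a Benjamini-Hochberg adjusted p of 0.05, with the smallest adjusted p at 0.66), and 25 arms had an unadjusted p under 0.05. DESeq2 called 1 arm, miR-3535. What follows therefore describes directions and sizes in 2 pairs, and no arm is reported as changed beyond the spread between libraries. In both pairs 127 arms (27%) were higher and 100 (21.3%) lower at 24 h, while 234 arms went opposite ways and 9 had the same value in both libraries of a pair. With scaling to total miRNA counts instead of TMM the split was 71 higher and 161 lower, and 71 and 96 arms respectively kept their direction under all 3 scalings tried. Lower arms also outnumbered higher ones with no filter and with 10 or more counts in each of the 4 libraries. The same held by the first 18 nt of each tag and with tags that match 1 miRNA. Higher arms stayed more numerous with RLE size factors, the other scaling tried, with other prior counts and with tags of 20 to 24 nt. The arms that moved alike made up 48.3% of those tested, fewer than the 234 that went opposite ways, so a shared direction alone sets no arm apart. At least 2-fold in both pairs, 17 arms (3.62%) were higher and 13 (2.77%) lower, but 6 and 34 with scaling to total counts and 11 and 3 among the 292 arms with 10 or more counts in each of the 4 libraries. With TMM, 31 arms passed 2-fold in both pairs in opposite directions. By a stricter reading, both 24 h libraries lay above both untreated ones for 61 arms (13%) and below them for 47 (10%). Whether 4 libraries in random order would give as many was not tested, so lack of overlap is given below only as a description.

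**Figure D1:**
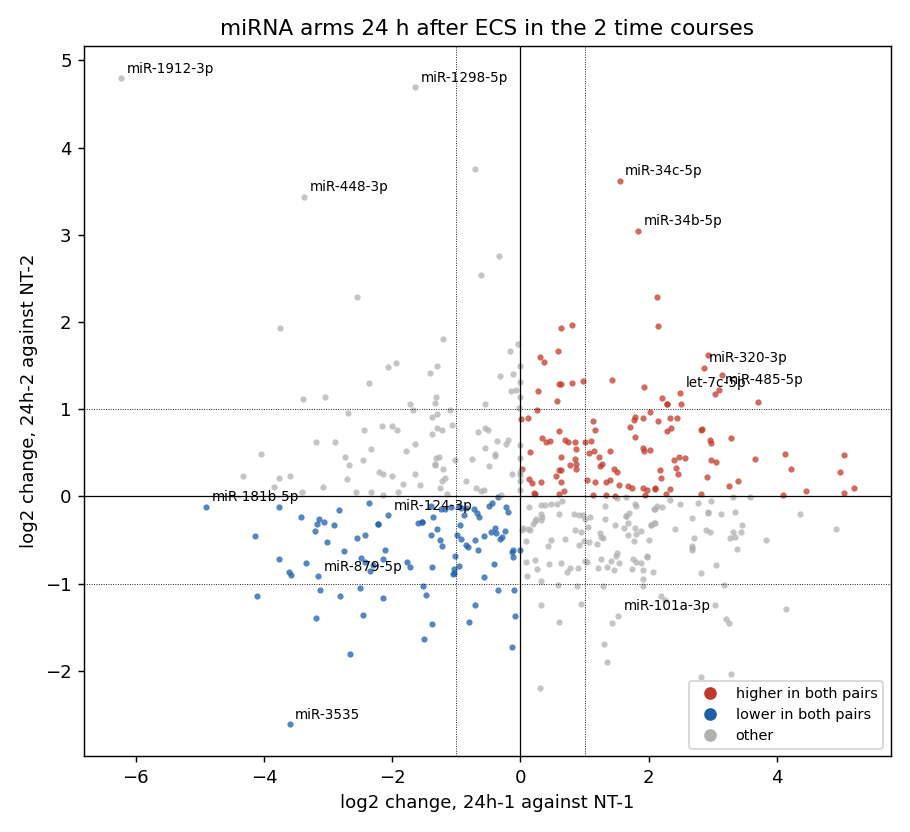
Log2 change at 24 h for 470 miRNA arms, pair 1 (24h-1 against NT-1) on the horizontal and pair 2 (24h-2 against NT-2) on the vertical axis, with 2-fold changes as dotted lines. The points fill all 4 quadrants and spread further along pair 1 (median absolute change 1.45) than along pair 2 (0.50).

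The 2 pairs differed in how far arms moved. The median absolute log2 change was 1.45 in pair 1 and 0.50 in pair 2, and 310 arms against 98 moved at least 2-fold. Across arms the changes of the 2 pairs had a Pearson r of -0.04, a description over 470 arms that share library and depth and are not independent. Among the 227 members, the change was larger in pair 1 for 185. The members held 65.0% of the tested counts in NT-1, 52.4% in 24h-1, 70.1% in NT-2 and 84.2% in 24h-2.

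Among arms averaging at least 100 CPM, miR-34c-5p, a member of the p53-linked miR-34 family, stood first by the smaller of its changes among the arms higher in both pairs. Its level was 2598 CPM in NT-1 and 7588 CPM in 24h-1, and 1962 CPM in NT-2 and 24095 CPM in 24h-2. Both 24 h libraries lay above both untreated ones, by 2.92-fold in pair 1 and 12.3-fold in pair 2. Its hairpin lies on chromosome 9 (GRCm38, 51103034 to 51103110, minus strand) next to that of miR-34b (51103562 to 51103645). miR-34b-5p moved with it, from 19.3 to 70.9 CPM in pair 1 and from 12.5 to 110 CPM in pair 2, again without overlap of the groups. In edgeR's test miR-34c-5p had a log2 change of 2.61 (standard error 0.91, adjusted p = 0.66) and miR-34b-5p one of 2.51 (standard error 0.87, adjusted p = 0.66). Without 24h-2 these were 1.37 and 1.62, and without NT-2 miR-34c-5p was at 1.63. Tags of 18 and 19 nt gave 52.9% of the NT-1 counts of miR-34c-5p and 41.9% of those of miR-34b-5p. With tags of 20 to 24 nt alone, their log2 changes in pair 1 were 0.83 and 0.87, under 2-fold. With scaling to total counts they were 0.91 and 1.21. miR-34a-5p, from another locus, was at 3.3 to 8.7 CPM in these 4 libraries and did not move alike, with log2 changes of -1.22 and 0.18.

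The 24 h levels of miR-34c-5p were not the highest of their time courses. In the second, the library taken 0.5 h after ECS held 29687 CPM, above the 24095 CPM of 24h-2, and the libraries at 1, 3 and 6 h held 4779, 4124 and 1992 CPM. In the first, 3 h after ECS gave 8916 CPM, above the 7588 CPM of 24h-1, and 6 h gave 2325 CPM. So miR-34c-5p was high in some shocked mice and near the untreated level in others, with no steady course between.

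The choroid plexus, which lies beside the hippocampus, is marked by miR-204. Its marker list (both arms of miR-204) was, like miR-34b/c, higher in 24h-2 than in NT-2. The summed level of the list was 39.2 and 85.2 CPM in the untreated libraries and 73.7 and 484 CPM at 24 h. The list and miR-34c-5p did not move together at every earlier time. In the second course miR-34c-5p was highest at 0.5 h (29687 CPM), where the list was above NT-2 but far below 24h-2. In the first it was highest at 3 h (8916 CPM), where the list stood at 18 CPM, its lowest in that course. At 0.5 h in the first course both were above NT-1. miR-204-3p was higher in both pairs, from 11.2 to 51.8 CPM and from 53.0 to 262 CPM, and at 24 h exceeded every earlier ECS library of its own time course. miR-204-5p was opposite in the pairs, from 28.01 to 21.9 CPM and from 32.2 to 222 CPM. The 5 tested arms from introns of Htr2c, a serotonin receptor gene with strong expression in choroid plexus, were lower in pair 1 and higher in pair 2, all 5. miR-448-3p went from 3703 to 356 CPM in pair 1 and from 399 to 4320 CPM in pair 2. miR-1298-5p went from 470 to 150 CPM and from 24.6 to 656 CPM. The part of choroid plexus in the level of miR-34b/c was not tested.

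**Figure D2:**
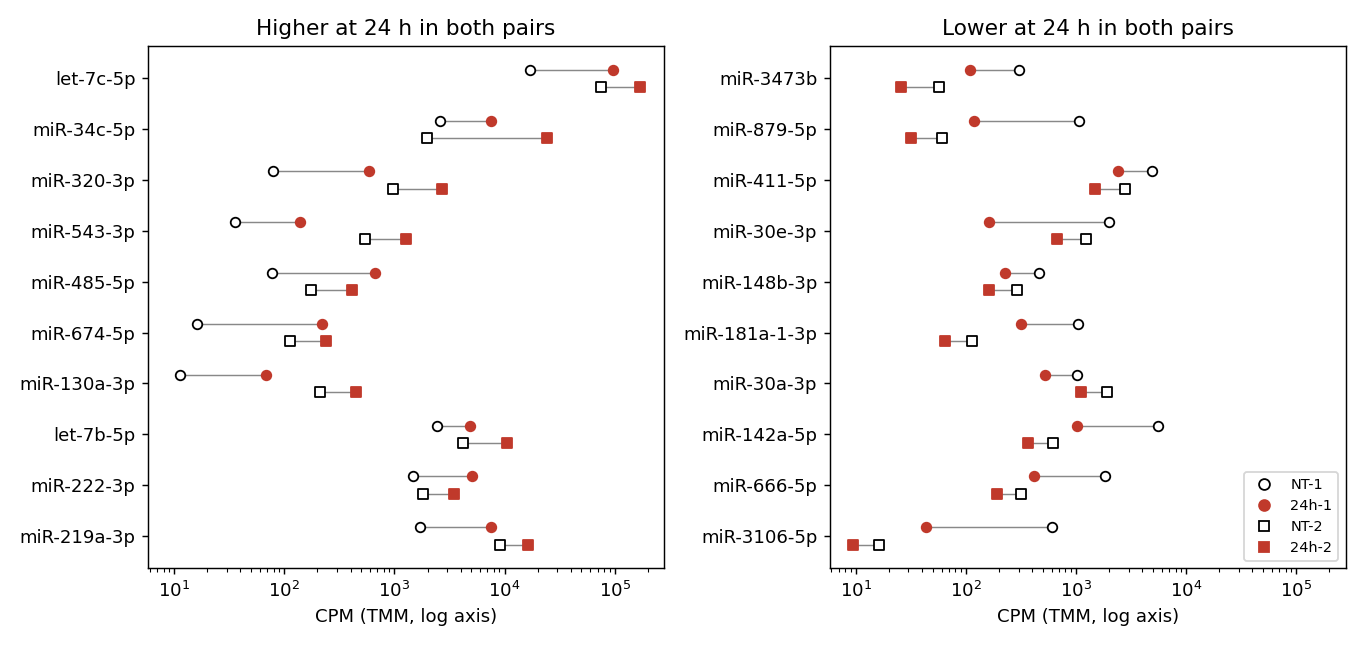
CPM on a log axis in NT-1, 24h-1, NT-2 and 24h-2 for the 10 arms higher and the 10 arms lower in both pairs, chosen as the arms of at least 100 CPM with the largest smaller change. Lines join the libraries of a pair. In 6 of the higher arms and 3 of the lower arms both 24 h libraries lie beyond both untreated ones, against 13% and 10% of all arms. Choosing arms by a large shared change favours such a lack of overlap.

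The let-7 family, which represses growth and cell cycle genes in differentiated cells, held the 3 arms with the highest mean over the 4 libraries, let-7f-5p, let-7g-5p and let-7c-5p, though miR-124-3p was highest in NT-1 and miR-101a-3p in 24h-1. Of the 10 tested arms with a RefSeq entry and the seed GAGGUAG, 8 were higher in both pairs and 1 was lower in both (let-7k, at most 46.7 CPM), with median log2 changes of 0.69 and 0.99. let-7c-5p, from chromosomes 15 and 16, was at 17209 and 96726 CPM in pair 1 and at 75222 and 171370 CPM in pair 2, so both 24 h libraries exceeded both untreated ones. let-7b-5p was at 2454 and 4840 CPM in pair 1 and at 4219 and 10579 CPM in pair 2, likewise without overlap.

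let-7a-5p was the next arm of at least 100 CPM after the 10 with the largest shared change. It was at 7614 and 13234 CPM and at 15609 and 38330 CPM, where the 24h-1 value lay below NT-2. let-7f-5p was 1.09-fold higher in pair 1 (67312 to 73245 CPM) and 1.86-fold in pair 2 (220090 to 408740 CPM), and with scaling to total counts its log2 change in pair 1 was -0.52. let-7g-5p had the opposite balance, with 10762 against 54177 CPM in pair 1 and 204590 against 216670 CPM in pair 2. miR-98-5p, which shares the seed, went lower in pair 1 (116 to 72.8 CPM) and higher in pair 2 (135 to 225 CPM).

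The 3′ arms of let-7 hairpins did not follow. let-7a-1-3p, let-7b-3p and let-7i-3p were lower in both pairs, all at 28 CPM or less in every library of the 4. In all, 11 of 141 hairpins with both arms tested had 1 arm higher and the other lower in both pairs, and Mirlet7a, Mirlet7b and Mirlet7i were among them. Both arms were higher for 9 hairpins and lower for 6. The direction of the let-7 family depended on the scaling, since with scaling to total miRNA counts 4 of its 16 arms on the list were higher and 4 lower in both pairs, against 8 and 3 with TMM.

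Of the miR-29 family, which represses collagen and DNA methyltransferase genes, 5 of 6 arms were higher in both pairs and none lower, against 27% and 21.3% of all arms. miR-29a-3p was at 10051 and 75603 CPM in pair 1 and at 53694 and 62668 CPM in pair 2, and miR-29c-3p at 365 and 2017 CPM and at 2089 and 2488 CPM. miR-29b-3p was at 74.1 and 89.1 CPM and at 166 and 331 CPM, so the 3 arms differed in which pair moved more. With scaling to total counts 1 of the 6 arms stayed higher in both pairs and none was lower.

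The activity-linked and synaptic list (miR-132, miR-212, miR-134, miR-485, miR-137 and miR-138) had 6 of 11 arms higher in both pairs and 1 lower. Over all arms these shares were 27% and 21.3%. With scaling to total counts the list had 5 and 2, against 71 and 161 of all 470 arms. Among the 6, miR-137-3p hardly differed in pair 2 (log2 0.0003). miR-137-5p had only 5, 43, 21 and 22 counts in NT-1, 24h-1, NT-2 and 24h-2. miR-485-5p, which targets the synaptic vesicle protein SV2A, was at 76.6 and 663 CPM in pair 1 and at 175 and 410 CPM in pair 2, with both 24 h libraries above both untreated ones. Its hairpin lies on chromosome 12 (109734902 to 109734974, plus strand) in an exon of the noncoding gene Mirg. miR-138-5p, which limits dendritic spine size, was at 5587 and 22580 CPM and at 2281 and 3309 CPM. Its groups overlapped, since NT-1 lay above 24h-2.

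miR-132 and miR-212 are cut from 1 transcript that CREB induces on neuronal activity. miR-212-5p was at 268 and 599 CPM and at 1361 and 2311 CPM, 2.23-fold and 1.70-fold higher. miR-132-3p was at 56.0 and 93.7 CPM and at 74.0 and 115 CPM, without overlap of the groups. miR-132-5p went the other way, from 267 to 171 CPM and from 124.4 to 105.2 CPM, and at 24 h lay below all earlier ECS libraries of its own time course. For miR-132-5p the direction in pair 1 turned when tags of 20 to 24 nt were counted alone (log2 0.47), as 88.3% of its NT-1 counts came from tags of 18 and 19 nt. miR-212-3p was lower in pair 1 and higher in pair 2 (log2 -1.07 and 0.82). miR-134-5p, which restrains Limk1 at dendritic spines, had log2 changes of 0.03 and -0.38.

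The other arms of at least 100 CPM with the largest shared rise follow. miR-320-3p, made without Drosha, was at 79.7 and 582 CPM and at 981 and 2733 CPM. Its 24h-1 level lay below NT-2, so the groups overlapped. miR-674-5p was at 16.2 and 222 CPM and at 113 and 241 CPM, without overlap. miR-222-3p, from the X chromosome, was at 1474 and 5093 CPM and at 1836 and 3458 CPM, also without overlap.

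miR-543-3p, of the imprinted chromosome 12 cluster, was at 35.5 and 137.6 CPM and at 535 and 1273 CPM, and miR-130a-3p at 11.2 and 67.6 CPM and at 212.4 and 444.8 CPM. In both, each 24 h library lay above its own untreated partner and the 2 time courses did not overlap at all. miR-219a-3p, an arm of the oligodendrocyte miRNA miR-219, was at 1697 and 7469 CPM and at 9019 and 16399 CPM. Of the oligodendrocyte list (miR-219 and miR-338), 3 of 4 tested arms were higher in both pairs, against 27% of all arms. The summed level of the list was 1813 and 9167 CPM untreated and 7697 and 16640 CPM at 24 h. Most of it was miR-219a-3p, with 2726 of 2912 counts in NT-1 and 48302 of 48998 in 24h-2. Each miR-338 arm had at most 190 counts in any of the 4 libraries.

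Arms from the miR-17-92 and miR-106b-25 clusters, which promote cell proliferation, were higher in both pairs in 6 of 11 and lower in 1. Over all arms these shares were 27% and 21.3%. With scaling to total counts 3 were higher and 2 lower, against 71 and 161 of all 470 arms. miR-25-3p was at 118 and 279 CPM and at 569 and 727 CPM, and miR-106b-5p at 89.6 and 227 CPM and at 161 and 181 CPM, the latter without overlap. miR-103-3p and miR-107-3p, which tune insulin sensitivity and lie in introns of pantothenate kinase genes, were both higher in both pairs. miR-103-3p was at 1942 and 13877 CPM and at 14140 and 24197 CPM. These paralogs share most tags, and only 28.2% and 17.3% of their counts came from tags that match 1 miRNA, so their values are not independent.

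Among arms averaging at least 100 CPM and lower in both pairs, the 10 with the largest shared change had log2 changes in pair 2 between -1.13 and -0.71. Of these 10, 1 was at least 2-fold lower in both pairs, against 7 of the 10 higher arms chosen the same way. Over all 470 arms, TMM put 17 at least 2-fold higher in both pairs and 13 lower. Scaling to total counts put 6 higher and 34 lower. miR-411-5p, from the chromosome 12 cluster (109710175 to 109710256, plus strand), was at 4934 and 2380 CPM and at 2767 and 1491 CPM, 0.48-fold and 0.54-fold its untreated level and without overlap of the groups. miR-30e-3p, from an intron of Nfyc, was at 1983 and 162 CPM and at 1232 and 674 CPM, and miR-148b-3p, from an intron of Copz1, at 462 and 224 CPM and at 291 and 163 CPM. Both were also without overlap.

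miR-879-5p, from an intron of 9330182L06Rik, was at 1061 and 118 CPM and at 60.9 and 31.9 CPM, and at 24 h lay below every other library of its own time course. miR-3106-5p, from an intron of Csmd1, was at 601 and 43.4 CPM and at 16.1 and 9.51 CPM. For both, NT-1 lay far above all other libraries compared, and pair 2 differed by less than 2-fold. miR-30a-3p was at 1010 and 517 CPM and at 1907 and 1100 CPM, miR-666-5p at 1834 and 415 CPM and at 318 and 193 CPM, and miR-3473b at 301 and 108 CPM and at 56.8 and 25.5 CPM. These 3 arms turned higher in pair 1 when tags of 20 to 24 nt were counted alone, and tags of 18 and 19 nt gave 92.1%, 98.7% and 99.4% of their NT-1 counts. Over the 20 arms of both directions, 17 kept their class in all 9 settings tried. The arms were chosen for large changes in both pairs, which favours a stable direction. Prior counts of 0.5 and 5 left 127 arms higher and 100 lower, as in the main setting. None of the 9 settings left out NT-1.

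miR-142a-5p, an arm of the miRNA that marks blood cells and microglia, was at 5513 and 1028 CPM and at 617 and 366 CPM. Almost all of the summed level of the leukocyte list came from it (5513 and 626 CPM untreated, 1032 and 372 CPM at 24 h). The partner arm miR-142a-3p had 0, 0, 4 and 1 counts in NT-1, 24h-1, NT-2 and 24h-2, miR-223-3p had 0, 1, 2 and 0, and miR-155-5p 0, 0, 0 and 1, and 7 of the 8 arms of the list had at most 24 counts in each of the 4 libraries. miR-451a, a red blood cell miRNA, was higher in both pairs (3.11 to 34.04 and 37.6 to 99.8 CPM), and the erythroid list as a whole stood at 1324 and 207 CPM untreated and 344 and 235 CPM at 24 h. The vascular list (miR-143, miR-145 and miR-126) stood at 41880 and 18080 CPM untreated and 80690 and 7874 CPM at 24 h, the muscle list at 1716 and 18520 CPM and 9151 and 14300 CPM, and the liver miRNA miR-122 at 24.9 and 209 CPM and 256 and 157 CPM, each opposite in the pairs. The part of other cells in the values of the members was not tested.

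The miR-181 family, which shapes lymphocyte signalling and is also abundant in brain, had 0 of 7 arms higher and 3 lower in both pairs. miR-181b-5p was at 23505 and 788 CPM in pair 1 and at 830 and 765 CPM in pair 2, and NT-1 stood far above the other 3 libraries. In edgeR's test its log2 change was -3.09 (standard error 1.08, adjusted p = 0.66), and tags of 18 and 19 nt gave 96.3% of its NT-1 counts. The value was -0.90 with tags of 20 to 24 nt, -1.25 by the first 18 nt of each tag and -0.54 without NT-1. miR-181a-5p was at 17103 and 1033 CPM and then at 2158 and 3015 CPM, opposite in the 2 pairs. The 3′ arms miR-181a-1-3p (1035 to 313 and 114 to 64.8 CPM) and miR-181b-1-3p (415 to 73.2 and 27.1 to 16.3 CPM) were lower in both.

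The miR-30 family, linked to autophagy and epithelial identity, had 0 of 10 arms higher and 2 lower in both pairs, the 3′ arms of miR-30a and miR-30e given above. The 5′ arms of miR-30a, miR-30b, miR-30c, miR-30d and miR-30e were each opposite in the pairs. miR-30a-5p was at 10926 and 8472 CPM and at 2879 and 4457 CPM. None of the 10 arms moved higher in both pairs with any of the 3 scalings.

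The arm with the smallest p, miR-3535, had 197, 20, 25 and 1 counts in NT-1, 24h-1, NT-2 and 24h-2. Its edgeR log2 change was -3.63 (standard error 0.98, adjusted p = 0.66), and DESeq2 with the time course in its model gave -3.87 (adjusted p = 0.049). Its annotation overlaps a snoRNA (Gm24148) within Ncl on chromosome 1, all of its NT-1 counts came from tags of 18 and 19 nt, and the edgeR log2 change was 0.21 with tags of 20 to 24 nt alone and -2.32 without NT-1. miR-3064-5p, next in order, rested on low counts, with 0.622 and 24.7 CPM in pair 1 and 0 and 0.34 CPM in pair 2.

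Neuron-enriched miRNAs showed no shared direction as a list, with 4 of 16 arms higher and 3 lower in both pairs. miR-124-3p, which promotes neuronal differentiation, was at 174010 and 41637 CPM in pair 1 and at 28849 and 24888 CPM in pair 2, lower in both, where NT-1 stood far above the rest. miR-128-3p was at 17775 and 69576 CPM and then at 77540 and 47897 CPM, opposite in the pairs, as was miR-9-5p (9284 and 19342 CPM, 8403 and 6587 CPM). miR-218-5p, at 411 and 276 CPM and at 118 and 85.6 CPM, was lower in both, and so was miR-153-3p (376 and 41.0 CPM, 63.5 and 50.9 CPM). The 4 arms higher in both were miR-137-3p (148 and 413 CPM, 428.7 and 428.8 CPM), miR-137-5p, miR-138-5p and miR-9-3p (387 and 1525 CPM, 1661 and 1742 CPM). The summed level of the neuron markers was lower at 24 h in both pairs, at 207700 and 155700 CPM and at 119500 and 85100 CPM. Without miR-124-3p it was higher in pair 1 (33710 and 114000 CPM) and lower in pair 2 (90620 and 60220 CPM).

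The miR-379/410 cluster of the imprinted Dlk1-Dio3 domain on chromosome 12, the largest miRNA cluster of the mouse brain, was split as well. Of its 52 tested arms 13 were higher and 11 lower in both pairs, beside 27% and 21.3% of all arms. miR-382-5p (413 to 1086 and 489 to 704 CPM) and miR-495-3p (34.2 to 114 and 239 to 414 CPM) were higher, and miR-381-3p (220 to 110 and 283 to 207 CPM) and miR-300-3p (1093 to 484 and 987 to 892 CPM) lower. With scaling to total counts the cluster had 9 arms higher and 21 lower.

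**Figure D3:**
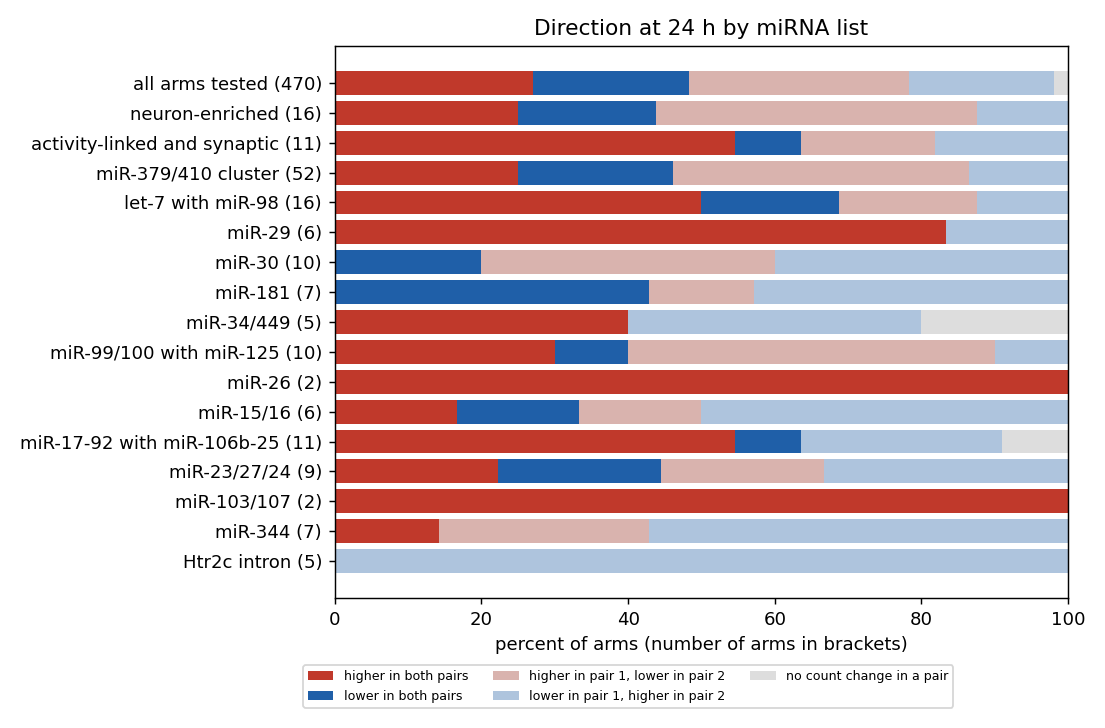
Percent of arms in each miRNA list that were higher in both pairs, lower in both, opposite in the pairs or without a difference in a pair, under TMM scaling. let-7, miR-29, the activity-linked list and miR-17-92 are among the lists with more arms higher in both than the 27% of all arms. miR-30, miR-181 and the Htr2c arms hold none.

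Other lists were smaller or mixed. The miR-23/27/24 clusters had 2 of 9 arms higher and 2 lower, with miR-27b-3p at 9824 and 4178 CPM and at 4184 and 3780 CPM. Tags of 18 and 19 nt gave 93.7% of the NT-1 counts of miR-27b-3p, and with tags of 20 to 24 nt alone its log2 change in pair 1 was 0.79. The miR-99/100 and miR-125 clusters had 3 of 10 higher and 1 lower, the latter being miR-125b-5p (8262 and 6037 CPM, 8309 and 6271 CPM). It shifted by near-equal amounts in both pairs (log2 -0.45 and -0.41), but by -2.04 and -0.48 with tags of 20 to 24 nt alone. miR-26a-5p and miR-26b-5p were both higher in both pairs, miR-26a-5p by 0.15 and 0.51 on the log2 scale, but miR-26a-5p kept this class in only 3 of 9 settings, and with scaling to total counts its change in pair 1 was -0.49. The miR-15/16 family had 1 arm of 6 higher and 1 lower, and the miR-344 family 1 of 7 higher and none lower. miR-101a-3p (36994 and 106000 CPM, 39227 and 15206 CPM) and miR-143-3p (41637 and 80300 CPM, 17729 and 7560 CPM), both among the 10 most abundant arms, went opposite ways, and miR-1839-5p (2873 and 27373 CPM, 24412 and 26557 CPM) was higher in both.

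Against the earlier ECS libraries of their own time course, 15 members of the 470 arms tested lay outside the whole range at 24 h. These were 9 of the 127 higher arms, above the range, and 6 of the 100 lower arms, below it. Whether libraries in random order would give as many was not tested. miR-3099-3p had 46.6 CPM in 24h-1 against at most 43.8 CPM earlier, and 25.8 CPM in 24h-2 against at most 22.2 CPM. miR-351-5p had 3.73 CPM in 24h-1 (8 counts) against at least 7.83 CPM, and 3.06 CPM in 24h-2 (9 counts) against at least 3.50 CPM. miR-204-3p, the other of the 9 that was at least 2-fold higher than untreated in both pairs, had 51.8 CPM in 24h-1 against at most 41.7 CPM earlier, and 262 CPM in 24h-2 against at most 81.0 CPM.

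**Figure D4:**
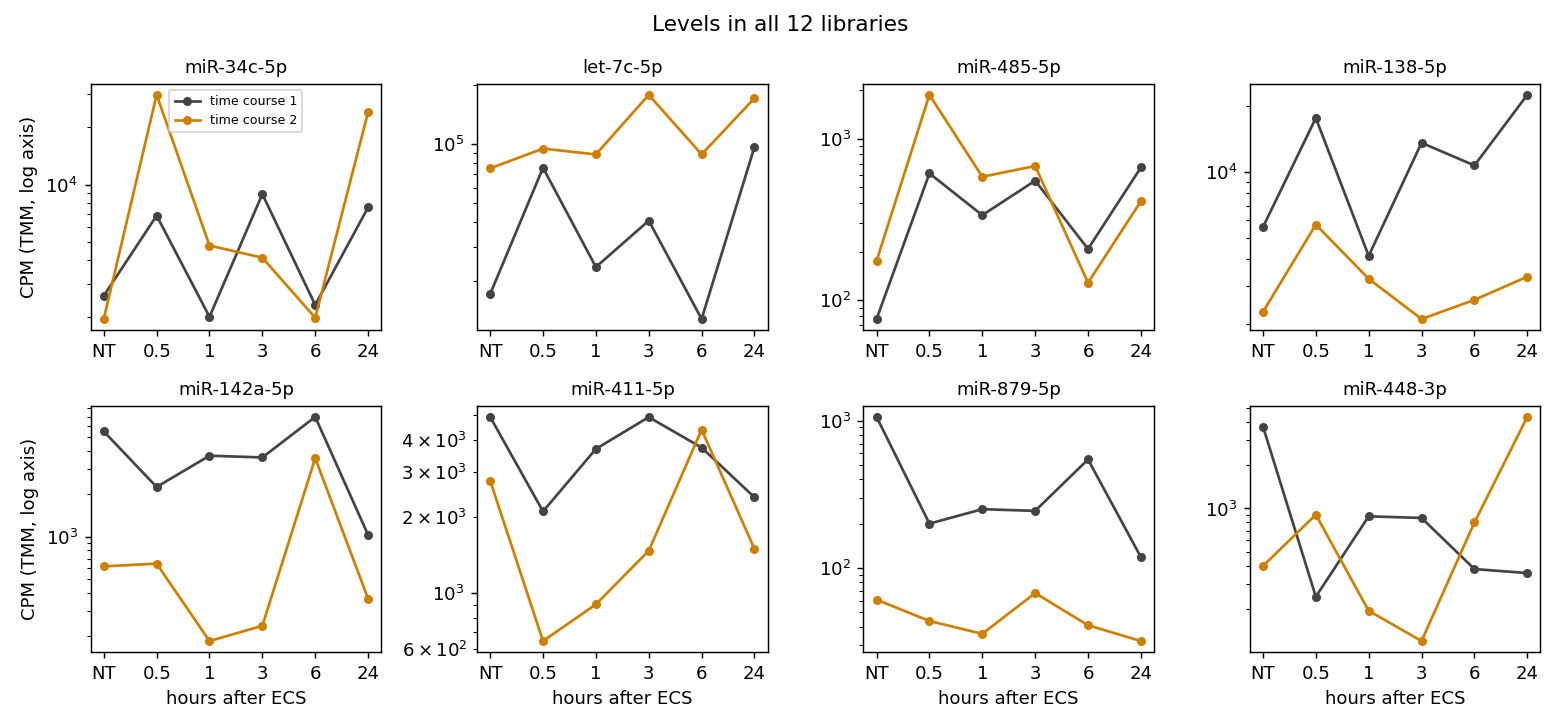
CPM on a log axis in all 12 libraries for 8 arms, with NT the untreated library of each time course and 1 line per time course. miR-34c-5p and let-7c-5p are above NT at 24 h in both courses, with levels as high at 0.5 or 3 h in at least 1, and miR-448-3p ends low in the first course and high in the second.

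The 127 higher and 100 lower arms differed little in base composition. Median GC content of the mature sequence was 47.7% and 48.0%, against 47.8% for the 397 of 470 arms with a RefSeq entry, and 36.6% and 41.0% began with U, against 38.8%. The 5′ arm gave 75 of 127 higher and 47 of 100 lower arms, against 244 of 470 in all. On the X chromosome lay 14 of the higher and 4 of the lower arms, of 42 tested. The median share of NT-1 counts from tags of 18 and 19 nt was 49.8% for the higher and 71.8% for the lower arms, against 58.9% over all arms. The part of these short tags in the direction of each arm was tested only by leaving them out, which kept the class of 161 members and changed that of 57.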

How the data were processed

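For each library the authors deposited every distinct insert of at least 18 nt with its raw read count, after adapter removal and without normalization. Tags were counted when their whole length matched a GENCODE M21 (GRCm38) miRNA hairpin exactly, were assigned to the 5′ or 3′ arm, and were split equally where they matched several miRNAs. Names came from RefSeq. edgeR 4.0.16 (R 4.3.3) fitted all 12 libraries by TMM and quasi-likelihood with the replicate number as a block, and DESeq2 1.42.0 was an alternative. Same-numbered libraries deviated together (mean r 0.521 over 15 pairs of time points), and the numbers mark the time course per the study's methods. The lowest r, 0.314, was that of untreated and 24 h, the time points compared here. The fit was tested on simulated counts of 436 arms. The built-in changes were between 2 and 3 in size on the log2 scale, up or down. Among 189 arms with a built-in change 47 passed, as did 3 of 247 arms without one. Most built-in changes were thus missed, so the lack of passing arms in the real libraries does not show that none changed. CPM and log2 changes were computed here. Named arms were the 10 most abundant, the 10 higher and 10 lower in both pairs with the largest smaller change at 100 CPM or more, the 5 with the smallest p and 2 per list, plus others chosen after their values were seen. Members and lists were chosen with earlier results of these data known. A p measures only the spread between these libraries. Reads carry no molecular identifiers, so counts hold PCR duplicates. Settings tried covered scaling, prior count, filter, tag length, sharing of tags, block, tool and leaving out each library.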

Additional observations from a re-analysis of the deposited data

How the results depend on the processing

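With 2 libraries a group, no permutation test over libraries could reach 0.05. With no replicate block edgeR also called 0 arms (8 with an unadjusted p under 0.05), and leaving out any of the 4 libraries gave 0 (6 to 81 under 0.05), so the block and pairing changed no call. DESeq2 with the block called 1 (51 under 0.05). Scaling to total miRNA counts, which shifts the median log2 change by -0.63 in pair 1 and -0.34 in pair 2, gave 71 arms higher and 161 lower in both pairs, and at least 2-fold 6 and 34. With 10 or more counts in each of the 4 libraries (292 arms) 66 were higher and 78 lower, and at least 2-fold 11 and 3. By the first 18 nt of each tag 113 were higher and 147 lower, and with tags that match 1 miRNA 113 and 118. With no filter (1064 arms) 169 were lower, more than were higher, and 21 were at least 2-fold lower. With a prior count of 5, 7 were at least 2-fold lower. Pair 1 alone (without NT-2) had 268 higher and 193 lower, 184 and 126 at least 2-fold, and pair 2 alone (without NT-1) 229 and 241, 58 and 40. Leaving out a 24 h library leaves the same single pairs.

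Of 780 refitted log2 changes of 56 arms, 744 kept their direction and side of the threshold, 35 reversed and 1 passed it (miR-3535, -3.87 in DESeq2). edgeR called none of the reversed arms, but they include miR-3535, which DESeq2 called, and the cause was not tested. With total scaling miR-128-3p became -0.071, miR-26a-5p -0.18 and miR-16-5p -0.34. miR-16-5p was also -0.025 with only the 4 libraries, -0.019 with no filter, -0.070 by the first 18 nt and -0.12 with unshared tags. With 20 to 24 nt tags miR-128-3p became -0.13, miR-3535 0.21, miR-30a-5p 0.032, miR-27b-3p 0.20 and miR-344-3p -0.44. With no replicate block miR-101a-3p became 0.67 and miR-143-3p 0.57, and miR-448-3p was -0.22 with only the 4 libraries. Leaving out each library in turn gave let-7f-5p -0.24 to 0.79, miR-128-3p -0.43 to 1.24, miR-101a-3p -0.87 to 0.63, miR-143-3p -0.94 to 0.19, miR-148b-3p -2.21 to 0.31, miR-30a-5p -1.27 to 1.15, miR-99b-5p -0.46 to 2.28, miR-26a-5p -0.34 to 0.50, miR-16-5p -0.76 to 0.70, miR-24-3p -1.40 to 0.074, miR-344-3p -0.81 to 2.03, miR-448-3p -3.24 to 2.59 and miR-1298-5p -1.73 to 4.07.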
